A study of Mus musculus with 4 samples.

Results

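Transglutaminases are calcium-dependent enzymes that join a glutamine of one protein to a lysine of another and so build cross-links that proteases do not readily cut. Here the transcripts of 5 mouse transglutaminase genes, *Tgm1*, *Tgm2*, *Tgm3*, *Tgm5* and *F13a1*, were followed in sympathetic ganglia (SG). The genes were taken by symbol from a RefSeq gene table, and they are 5 of the 17667 genes listed in at least 1 of the 4 libraries. The study named *Tgm1* among genes regulated in opposite directions in its mutant mice on the basis of these same libraries, so its direction here is not independent evidence. The study also measured *Tgm1* by real-time RT-PCR in ganglia of individual mice, and those measurements are not analysed here. TG1, encoded by *Tgm1*, is a membrane-anchored enzyme best known from keratinocytes, where it assembles the cornified envelope. TG2, encoded by *Tgm2*, is the widely expressed tissue enzyme, which also binds GTP and works on the extracellular matrix. TG3 and TG5 are epidermal enzymes, and *F13a1* encodes the catalytic A subunit of coagulation factor XIII, found in platelets and tissue macrophages.

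The SG at thoracic levels T1-T4, which supply interscapular brown fat, were taken from C57BL/6 mice aged 12 weeks after 1 day of cold exposure at 5 °C, and RNA-seq was performed on 1 library per group, each a pool from 6 mice. The groups were 2 of WT mice (WT_1 and WT_2), 1 of TRKC+/- mice, which carry a single functional copy of the gene for the NT-3 receptor TRKC, and 1 of AdNTF3-Tg mice, in which the adiponectin promoter drives the neurotrophin NT-3 in adipocytes. The comparison asked which ganglion transcripts moved when NT-3 signalling was raised or lowered. The study sequenced each mutant line beside its own WT controls, but the labels do not say which WT library belongs to which mutant. Each mutant library was therefore set against each WT library. The names of the deposited tables place WT_1 with TRKC+/- and WT_2 with AdNTF3-Tg, but were not used for grouping.

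The libraries held between 8665955 and 8894985 reads on genes and listed between 16277 and 16587 genes. A signal of 3 reads, the smallest taken as detectable, was between 0.337 and 0.346 CPM (reads scaled to library size). *Ntrk3*, which encodes TRKC, had 78 reads in WT_1, 83 in WT_2, 91 in the library labelled TRKC+/- and 76 in AdNTF3-Tg, and was thus not lower in the library labelled as carrying a single functional copy. These reads cover the whole gene, with 2 RefSeq transcripts listed, and not the disrupted part alone, so they are a limited check of the label. The study also measured the receptor transcript in ganglia of individual mice, and those measurements are not analysed here. In these libraries, the log2 ratio of *Ntrk3* reads in the library labelled TRKC+/- to those in WT_1 was 0.18. Its exact 95% counting interval ran from −0.27 to 0.64, and the ratio to WT_2 was 0.13 (−0.32 to 0.57). The noradrenergic identity of the tissue was plain, with *Th* between 2576 and 2753 FPKM and *Dbh* between 2100 and 2170 FPKM. FPKM is the read number scaled to gene length and library size.

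The enzymes share a catalytic cysteine, and the coding strand around its codon is given for the 5 genes because it is the feature that makes them 1 family. The codon of this cysteine is in capitals. Each stretch is 57 bases long, written 5′ to 3′, lies within a single exon, and comes from the GENCODE transcript with the longest coding sequence on NCBIM37 (mm9).
*Tgm1*: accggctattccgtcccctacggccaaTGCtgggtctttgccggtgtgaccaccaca
*Tgm2*: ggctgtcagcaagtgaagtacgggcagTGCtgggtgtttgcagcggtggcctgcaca
*Tgm3*: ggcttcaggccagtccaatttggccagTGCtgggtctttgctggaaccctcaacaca
*Tgm5*: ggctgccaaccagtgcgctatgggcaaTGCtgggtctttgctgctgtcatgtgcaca
*F13a1*: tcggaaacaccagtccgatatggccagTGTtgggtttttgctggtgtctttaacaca
*Epb42*: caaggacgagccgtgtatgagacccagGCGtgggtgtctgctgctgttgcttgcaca

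*Epb42* (Epb4.2 in the annotation), which encodes the red cell membrane protein 4.2, a family member without enzyme activity, has an alanine codon at the aligned position. The windows lie at chr14:56328232-56328288 on the minus strand in exon 7 for *Tgm1*, chr2:157957068-157957124 on the minus strand in exon 6 for *Tgm2*, and chr2:129855481-129855537 on the plus strand in exon 6 for *Tgm3*. Those of *Tgm5* and *F13a1* lie at chr2:120896469-120896525 (minus strand, exon 6) and chr13:37038313-37038369 (minus strand, exon 7), and that of *Epb42* at chr2:120853381-120853437 (minus strand, exon 6). Among the 5 genes, 24 of the 57 positions held the same base in all, and pairs of genes matched at 30 to 42 positions. Over the whole aligned coding sequence, pairs of the 5 genes were between 59.5% and 64.6% identical. No stretch of 50 bases, the length of the reads, was shared between *Tgm1*, *Tgm3*, *Tgm5* or *F13a1* and any other gene among 55443 protein-coding transcripts searched on both strands. *Tgm2* shared 130 of its 3592 stretches of 50 bases with *Rprd1b*, a gene on the opposite strand whose exons overlap those of *Tgm2* by 370 bases. The strand setting of the counting is not given in the sources used here. *Rprd1b* was itself between 8.27 and 9.67 FPKM, and all expected counts of the 5 genes were whole.

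*Tgm2* dominated the family, with 26.88 FPKM in WT_1, 27.23 in WT_2, 27.05 in the library labelled TRKC+/- and 24.57 in AdNTF3-Tg. *F13a1* came next, with 13.20, 10.87, 12.22 and 11.72 FPKM in the same order. Together *Tgm2* and *F13a1* made up between 95.2% and 98.7% of the summed FPKM of the 5 genes, and the 4 libraries did not overlap between the pair, the ratio of *Tgm2* to *F13a1* lying between 2.04 and 2.51. The epidermal enzymes were far lower. *Tgm1* lay between 0.34 and 1.81 FPKM, *Tgm3* between 0.11 and 0.39, and *Tgm5* at 0.14 where it was listed. Within each library *Tgm1* was above *Tgm3*, although their ranges over the 4 libraries overlapped, as did those of *Tgm3* and *Tgm5*. By mean FPKM *Tgm2* ranked 3188 and *F13a1* 6134 of the 15275 genes listed in all libraries, *Tgm1* 12658 and *Tgm3* 14547. The family sum moved little, from 37.66 FPKM in AdNTF3-Tg to 40.83 FPKM in the library labelled TRKC+/-.

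**Figure D1:**
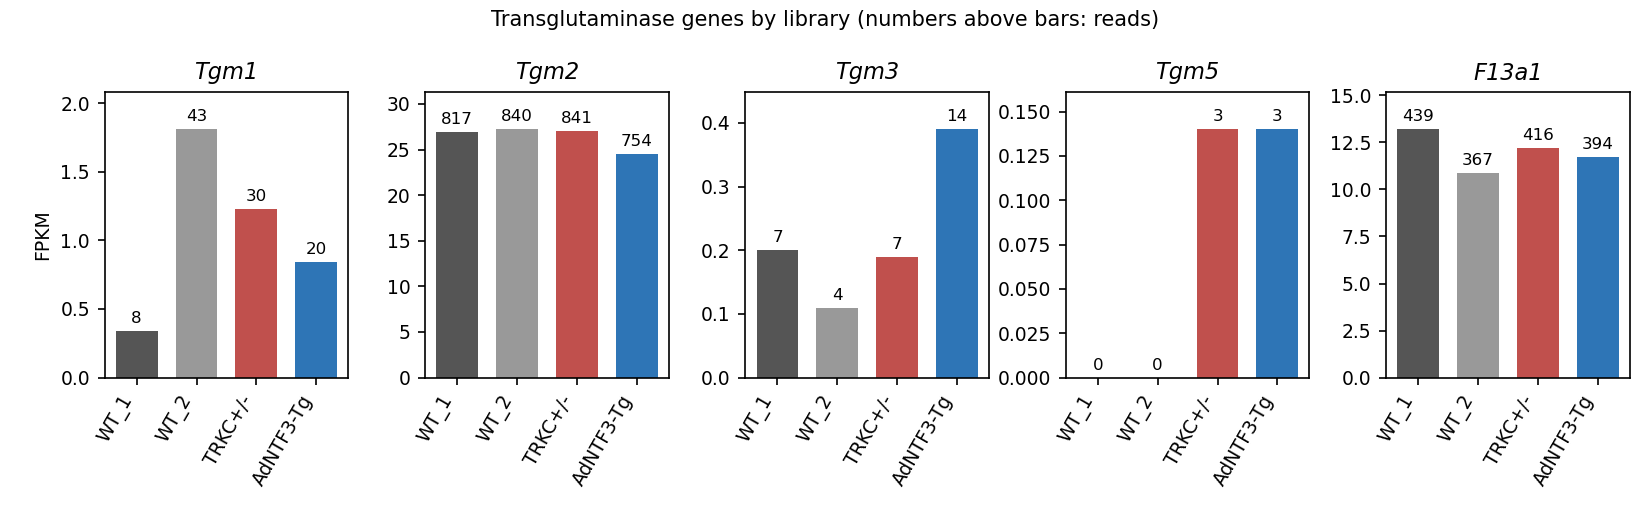
Bars show the FPKM of each transglutaminase gene in the 4 libraries, with the reads above each bar and a separate linear axis from 0 for each gene. *Tgm1* has its lowest bar (0.34 FPKM) and its highest bar (1.81 FPKM) in the 2 WT libraries, while *Tgm2* stays between 24.57 and 27.23 FPKM. There is 1 library per bar and no error bar.

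*Tgm1* (Entrez 21816, NCBIM37 chromosome 14, 56318846 to 56332329, minus strand) was the gene whose level varied most among the 4 that were listed in all libraries, by 5.32-fold from the lowest to the highest. It had 8 reads in WT_1, 43 in WT_2, 30 in the library labelled TRKC+/- and 20 in AdNTF3-Tg, which correspond to 0.34, 1.81, 1.23 and 0.84 FPKM. The WT libraries were the extremes and both mutant libraries lay between them. The log2 fold change of WT_1 to WT_2, computed on FPKM + 0.1, was −2.12, and only 32 of the 15275 genes (0.209%) differed by at least as much between the WT libraries. On the reads alone the log2 ratio was −2.40, with an exact 95% counting interval from −3.70 to −1.29. This interval, like those that follow in parentheses after a fold change, is that of the ratio of reads, compares the pair of libraries and covers counting error only, not the spread between mice.

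The direction of *Tgm1* in each mutant depended on the WT library. Against WT_1 the library labelled TRKC+/- was higher, by 1.60 on the log2 scale (0.71 to 3.21), and against WT_2 its value was −0.52 (−1.25 to 0.18). AdNTF3-Tg was at 1.10 against WT_1 (0.05 to 2.69) and at −1.02 against WT_2 (−1.94 to −0.30). Thus with WT_1 as control both mutants were higher, and with WT_2 as control both values were negative. In the pairing that the table names give, WT_1 for TRKC+/- and WT_2 for AdNTF3-Tg, the values were 1.60 and −1.02, in opposite directions, both past the study's cutoff of 0.5 on the log2 scale and with counting intervals that leave out 0. Against the mean of the WT libraries the values had opposite signs, 0.18 in the library labelled TRKC+/- and −0.32 in AdNTF3-Tg, both smaller than the difference between the WT libraries. With the condition that the cutoff be passed in the same direction against both WT libraries, *Tgm1* was called in neither mutant, where 4.27% of all genes were called in the library labelled TRKC+/- and 5.7% in AdNTF3-Tg. A position between the WT libraries was common, at 37.4% of all genes for the library labelled TRKC+/- and 32.4% for AdNTF3-Tg. Both mutant libraries lay there for 17.7% of all genes, and for 5.94% of all genes they did so with a WT difference past the cutoff.

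Few reads stand behind these values, and the transcript model changed them little. The length assigned to *Tgm1*, for which 3 RefSeq transcripts are listed, was 2755 bases in 3 libraries and 2791.94 in the library labelled TRKC+/-. *Rabggta*, which encodes a subunit of the enzyme that attaches lipids to Rab proteins and lies 2380 bases away on the same strand, had 21.72, 20.90, 21.93 and 19.22 FPKM in WT_1, WT_2, the library labelled TRKC+/- and AdNTF3-Tg. Its log2 fold change between the WT libraries was 0.06, against −2.12 for *Tgm1*.

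Keratinocyte markers, examined because TG1 is best known from these cells, were low or absent. *Krt10* was the most abundant, with 24 reads in WT_1, 25 in WT_2, 35 in the library labelled TRKC+/- and 27 in AdNTF3-Tg, a level (1.33 to 1.90 FPKM) near that of *Tgm1*. *Trp63* had 6 to 13 reads and *Krt1* 4 to 10. *Krt5* and *Dsg1a* were not listed in any library and *Krt14* had a single read in WT_1. The 6 keratinocyte genes summed to 2.17 FPKM in WT_1, 1.80 in WT_2, 2.87 in the library labelled TRKC+/- and 2.32 in AdNTF3-Tg. This sum rests on 41 reads in WT_1 and 35 in WT_2, so few reads stand behind its order. The part of such cells in the level of *Tgm1* was not tested. Among 11 genes of the cornified envelope and other TG1 partners, *Ivl*, *Sprr1b* and *Flg*, which encode envelope precursors, were not listed in any library, and 8 were listed in all. Of these 8, 0 passed the cutoff against both WT libraries in either mutant, which does not set the list apart from all genes (4.27% and 5.7%). The envelope protein gene *Evpl* had 4.71 FPKM in WT_1, 5.35 in WT_2, 5.24 in the library labelled TRKC+/- and 4.96 in AdNTF3-Tg. *Ppl*, which encodes its partner periplakin, had 0.46, 0.09, 0.58 and 0.31 FPKM in that order, with a WT_1 to WT_2 value of 1.56 on the log2 scale (0.94 to 4.09). In the whole list 2 of the 8 genes, *Ppl* and *S100a11*, were higher in WT_1 than in WT_2, with counting intervals that leave out 0. The other 6 were higher in WT_2, as *Tgm1* was, but their counting intervals each included 0. The median WT_1 to WT_2 value of the 8 was −0.11, against 0.007 over all genes. The calcium-binding *S100a11* lay between 310 and 371 FPKM, and the protease inhibitor gene *Cstb* between 109 and 137 FPKM.

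Other markers differed between the same libraries as *Tgm1*. The 6 skeletal muscle genes summed to 72.16 FPKM in WT_1, 35.23 in the library labelled TRKC+/-, 25.47 in AdNTF3-Tg and 2.83 in WT_2, and 6 of 6 were highest in WT_1 and lowest in WT_2, the opposite ends to *Tgm1*. Interferon-stimulated genes summed to 103.63 FPKM in WT_1, 122.73 in WT_2, 131.46 in the library labelled TRKC+/- and 91.20 in AdNTF3-Tg. Of these, 10 of 10 were lower in WT_1 than in WT_2, with a median log2 fold change of −0.26 against 0.007 over all genes. Of these 10 genes, 3 (*Ifit3*, *Isg15* and *Irf7*) passed the cutoff as lower in AdNTF3-Tg, where 3.58% of all genes did, and 0 passed in the other mutant, where 4.27% of all genes passed in either direction. The part of these cells and genes in the *Tgm1* values was not tested. In bulk ganglia, fewer cells of a type and less RNA per cell cannot be told apart.

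The genes most like *Tgm1* over the 4 libraries, by the distance between log2(FPKM + 0.1) profiles centred on their own means and searched over 12751 genes averaging 1 FPKM or more, were *Tmsb15b1*, *Ube2t*, *Mx1*, *Gm10863* and *Gm2011*, at distances of 0.18, 0.45, 0.49, 0.56 and 0.60. With 4 libraries such likeness is a description only. *Mx1*, an interferon-induced GTPase gene that the study also named and 1 of the 10 interferon genes above, had most reads of these, 16 in WT_1, 55 in WT_2, 41 in the library labelled TRKC+/- and 23 in AdNTF3-Tg. The counts of *Tmsb15b1* and *Gm2011* were not whole numbers, and *Gm10863* had between 4 and 11 reads.

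**Figure D2:**
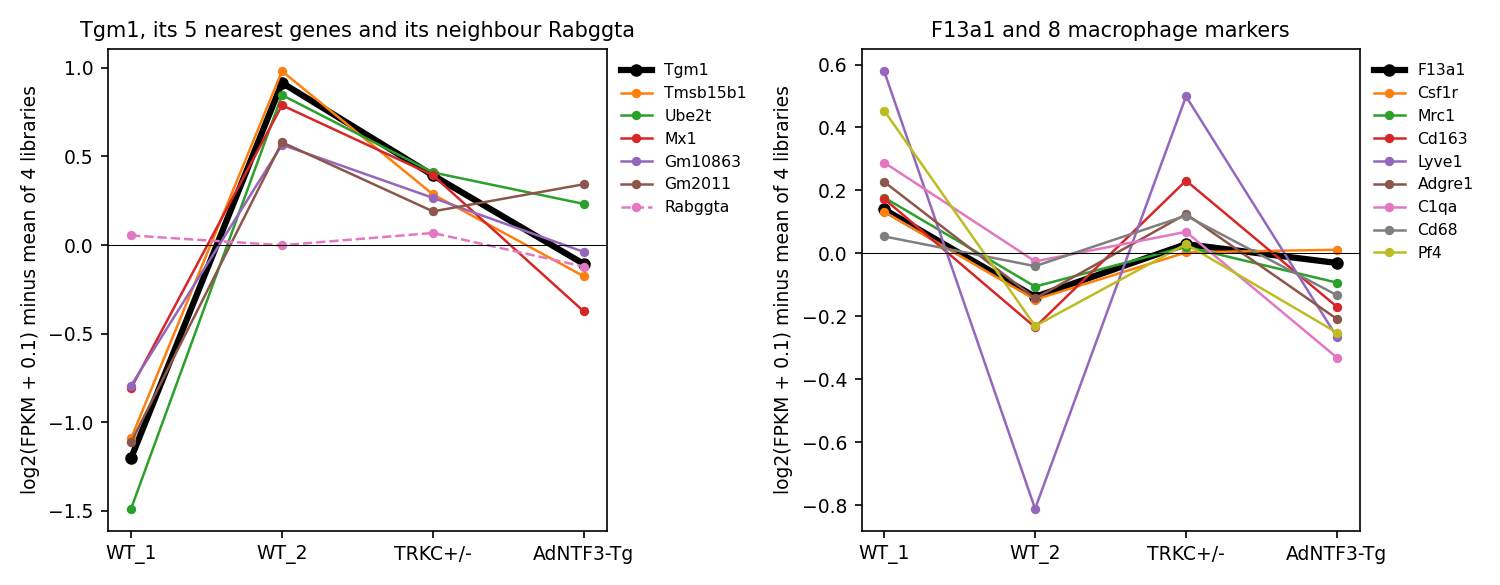
Each point is the log2(FPKM + 0.1) of a gene in 1 library minus the mean of its 4 libraries, and lines only join the points of a gene. On the left, *Tgm1* and its 5 nearest genes are lowest in WT_1 and highest in WT_2 while the neighbouring *Rabggta* stays flat. On the right, *F13a1* and 8 macrophage markers are higher in WT_1 than in WT_2.

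*Tgm2* (Entrez 21817, chromosome 2, 157942138 to 157972172, minus strand) had 817 reads in WT_1, 840 in WT_2, 841 in the library labelled TRKC+/- and 754 in AdNTF3-Tg. Its FPKM varied by 1.11-fold, the least among the 4 genes listed in all libraries. The library labelled TRKC+/- lay between the WT libraries, at log2 fold changes of 0.01 and −0.01 with counting intervals from −0.14 to 0.14 against WT_1 and from −0.15 to 0.13 against WT_2. AdNTF3-Tg was the lowest library, by −0.13 against WT_1 (−0.28 to 0.01) and by −0.15 against WT_2 (−0.29 to −0.01), both well inside the cutoff. None of the 4 intervals reached the cutoff.

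Genes on which TG2 acts, or that bind it, were examined beside it. Of 16 such genes listed in all libraries 0 passed the cutoff against both WT libraries in either mutant, against 4.27% and 5.7% of all genes, so that few calls were to be had in a list of this size. The median log2 fold change of the 16 lay between −0.06 and 0.10 over the 4 comparisons, against medians between −0.004 and 0.00 over all genes. The intermediate filament gene *Vim* lay between 686 and 761 FPKM, the thioredoxin gene *Txn1* between 252 and 282, the protein disulfide isomerase gene *Pdia3* between 183 and 193, and the GTPase gene *Rhoa* between 144 and 154. Other genes of the list varied more than *Tgm2*. The matrix protein gene *Spp1* had 50.72 FPKM in WT_1, 74.63 in WT_2, 49.95 in the library labelled TRKC+/- and 63.29 in AdNTF3-Tg, and *Igfbp3*, which encodes a binding protein of insulin-like growth factors, had 2.49, 2.27, 2.62 and 3.56. In AdNTF3-Tg *Igfbp3* was just short of the cutoff against WT_1 and at 0.63 against WT_2. The growth factor gene *Tgfb1* lay between 7.84 and 10.42 FPKM. The adhesion receptor gene *Adgrg1*, whose product binds TG2, lay between 33.75 and 37.47 FPKM. Since retinoic acid is a known inducer of *Tgm2*, 9 genes of retinoid receptors and binding proteins were examined too, and 0 passed the cutoff against both WT libraries in either mutant, again beside 4.27% and 5.7% of all genes. Endothelial cells are rich in TG2, and the 5 endothelial markers summed to 34.25 FPKM in WT_1, 30.03 in WT_2, 34.66 in the library labelled TRKC+/- and 29.52 in AdNTF3-Tg. Their part in the level of *Tgm2* was not tested. The genes nearest to *Tgm2* in profile were the tubulin gene *Tuba1a*, the nuclear pore gene *Nup93*, *Gfm1*, *Unc79* and *Tmem106a*, at distances between 0.013 and 0.017.

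*F13a1* (Entrez 74145, chromosome 13, 36959047 to 37142113, minus strand) had 439 reads in WT_1, 367 in WT_2, 416 in the library labelled TRKC+/- and 394 in AdNTF3-Tg. As for *Tgm1*, the WT libraries were the extremes, but in the reverse order and by only 1.21-fold. The log2 fold change of WT_1 to WT_2 was 0.28 (counting interval 0.09 to 0.49). The 4 values of the mutants against the WT libraries lay between −0.17 and 0.17, and their 4 counting intervals each included 0.

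Markers of macrophages, in which *F13a1* is expressed in tissues, had the same order of the WT libraries. Each of the 8 markers was higher in WT_1 than in WT_2, and 6 of the 8 were highest in WT_1. The median log2 fold change of the 8 was 0.34, against 0.007 over all genes. Their summed level was 113.2 FPKM in WT_1, 87.78 in WT_2, 99.96 in the library labelled TRKC+/- and 80.89 in AdNTF3-Tg. The complement gene *C1qa* made up much of this sum, with 52.38, 42.11, 44.95 and 34.05 FPKM in that order, and of the 8 markers 4 were lowest in WT_2, as *F13a1* was, and 4 in AdNTF3-Tg. *Csf1r*, the receptor for the macrophage growth factor, had 12.97, 10.67, 11.85 and 11.92 FPKM, also highest in WT_1 and lowest in WT_2. *Lyve1*, which marks perivascular macrophages and lymphatic vessels, had 3.78, 1.38, 3.57 and 2.06 FPKM. This order of the WT libraries was not limited to macrophage markers. The 4 fibroblast markers were higher in WT_1 than in WT_2 too, with a median log2 fold change of 0.42 and sums of 251.6 FPKM in WT_1, 187.8 in WT_2, 219.0 in the library labelled TRKC+/- and 208.8 in AdNTF3-Tg, the same ranking as *F13a1*. Of the 5 markers of satellite glia and Schwann cells 5 were higher in WT_1, with a median of 0.21. The part of any of these cells in the level of *F13a1* was not tested. Of the 4 platelet genes, *Gp9* was unlisted in every library, *Ppbp* had at most 4 reads and *Itga2b* had 19 to 33. *Gp1bb* lay between 9.03 and 11.43 FPKM, with counts that were not whole numbers, and made up most of the sum of the list. That sum was 10.57 FPKM in WT_1, 10.62 in WT_2, 12.17 in the library labelled TRKC+/- and 10.58 in AdNTF3-Tg. The part of platelets in the level of *F13a1* was not tested.

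Several of the circulating partners of factor XIII were hardly transcribed in the ganglia. *F13b*, which encodes the carrier B subunit, and *Fgb*, *Fgg* and *Plg*, which encode 2 fibrinogen chains and plasminogen, were not listed in any library, and *Fga* had at most 4 reads. An unlisted gene had no reads, which allows up to 3 reads per library. Of the 10 genes in this list 3 were listed in all libraries, *Fn1*, *Vtn* and *Thbs1*, and 0 of 3 passed the cutoff against both WT libraries in either mutant, a list too short to be read against 4.27% and 5.7% of all genes. *Fn1*, the gene of fibronectin, which both TG2 and factor XIII cross-link, had 11.43 FPKM in WT_1, 10.46 in WT_2, 12.73 in the library labelled TRKC+/- and 10.71 in AdNTF3-Tg. The genes nearest to *F13a1* in profile were *Gpr155*, *Smim20*, *Acd*, *Rpa2* and *Notch4*, at distances between 0.024 and 0.030.

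*Tgm3* (Entrez 21818, chromosome 2, 129838085 to 129876135, plus strand) was near the limit of detection. It had 7 reads in WT_1, 4 in WT_2, 7 in the library labelled TRKC+/- and 14 in AdNTF3-Tg, or 0.20, 0.11, 0.19 and 0.39 FPKM. AdNTF3-Tg was the highest library and WT_2 the lowest, and the WT libraries themselves differed by 0.51 on the log2 scale (−1.14 to 3.06). The log2 fold changes of AdNTF3-Tg were 0.71 against WT_1 (counting interval −0.43 to 2.53) and 1.22 against WT_2 (0.14 to 3.87). With a pseudocount of 1 FPKM they were 0.21 and 0.32, under the cutoff. The library labelled TRKC+/- was at −0.05 and 0.47. Among the keratinocyte markers, *Trp63* had 7 reads in WT_1, 6 in WT_2, 13 in the library labelled TRKC+/- and 13 in AdNTF3-Tg, and *Krt1* had 9, 4, 10 and 8. *Krt10*, with more reads than either, was lowest in WT_1 and highest in the library labelled TRKC+/-, and *Krt5*, *Dsg1a* and *Krt14* had at most 1 read. The part of such cells in the level of *Tgm3* was not tested.

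*Tgm5* (Entrez 74176, chromosome 2, 120871847 to 120911577, minus strand) had 3 reads in the library labelled TRKC+/- and 3 in AdNTF3-Tg, and was not listed in either WT library. All 4 values were at or under the smallest detectable signal, so no fold is given. Other family genes were low too. *Tgm4*, the prostate enzyme, had 19 reads in WT_1, 24 in WT_2, 18 in the library labelled TRKC+/- and 21 in AdNTF3-Tg, a level (0.75 to 1.00 FPKM) within the range of *Tgm1*. *Tgm6* and *Tgm7* had at most 1 read per library, and *Epb42* had none.

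Counted over the family, 4 of the 5 genes were listed in all libraries and could be compared. In the library labelled TRKC+/- 0 of the 4 passed the cutoff against both WT libraries, where 4.27% of all genes did (1.78% higher and 2.49% lower). In AdNTF3-Tg 1 of the 4, *Tgm3*, was higher than both, where 5.7% of all genes passed in either direction 2.12% were higher and 3.58% lower. A fit over all 4 libraries with edgeR's quasi-likelihood test, in which the 2 WT libraries are the only replicates and each mutant library is assumed to vary like them, gave adjusted p = 0.999 for the 4 genes in the library labelled TRKC+/-. In AdNTF3-Tg the adjusted p (edgeR) was 0.946 for *Tgm1*, 0.827 for *Tgm2*, 0.818 for *Tgm3* and 0.971 for *F13a1*. The fitted log2 fold changes were −0.35, −0.14, 1.33 and −0.03 in AdNTF3-Tg, and in the other mutant they were 0.21, −0.003, 0.32 and 0.02. *Tgm3* entered this fit only through its reads in AdNTF3-Tg, since the filter required about 10 reads in at least 1 library, and *Tgm5* did not enter. Of the 14156 genes tested, 1 passed the adjusted p threshold of 0.05 in the library labelled TRKC+/- (0.00706%) and 0 in AdNTF3-Tg (0.0%), against 273 (1.93%) and 831 (5.87%) at an unadjusted p under 0.05. With DESeq2 size factors edgeR called 2 genes (0.0141%) in the library labelled TRKC+/-, with 2.06% and 6.03% of genes under 0.05 unadjusted in the 2 mutants, and with no filter it called 0, with 1.3% and 3.4%. DESeq2 called 2 genes (0.0113%) and 0, with 0.119% and 0.363% under 0.05 unadjusted. None of these calls was a transglutaminase. The gene called by edgeR was *Ucp1*, the uncoupling protein of brown fat, named after its values were seen, with 655 reads in WT_1, 672 in WT_2, 110 in the library labelled TRKC+/- and 525 in AdNTF3-Tg. Since the study gave each mutant line its own WT controls, a difference between those control cohorts counts as spread in this fit. The fit has 1 residual degree of freedom, and a p that misses the threshold does not show that the groups were alike.

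**Figure D3:**
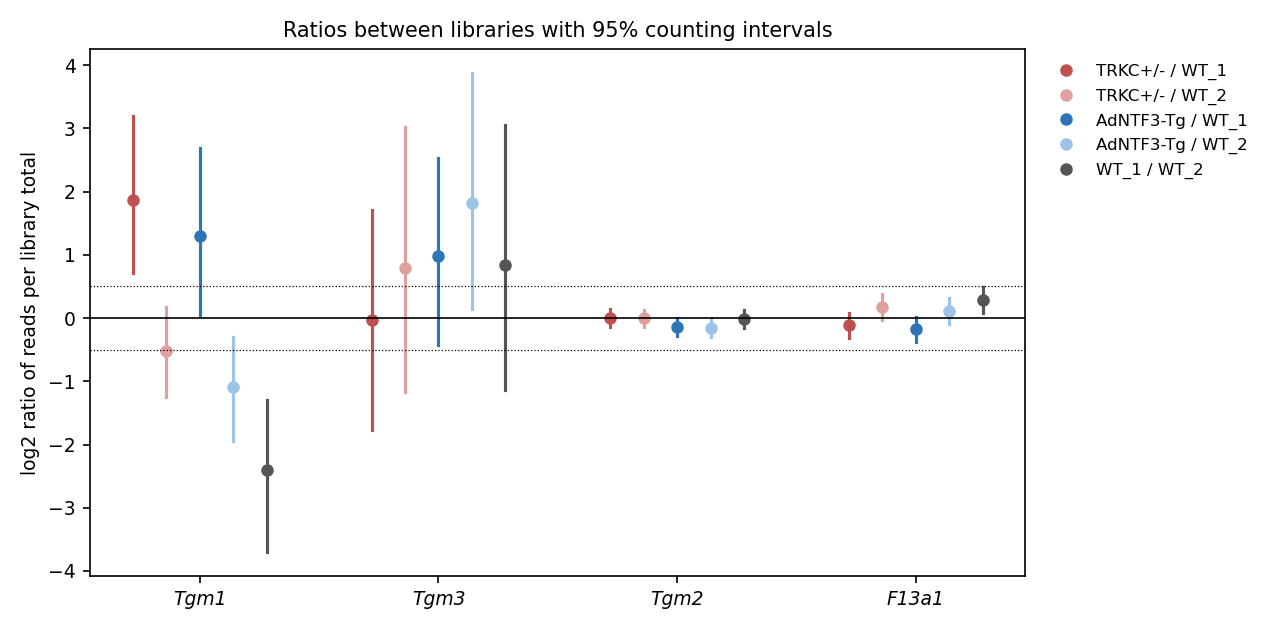
Points are log2 ratios of reads per library total between pairs of libraries for the 4 genes listed in all of them, bars are exact 95% counting intervals, and dotted lines mark ±0.5. For *Tgm1* the intervals against WT_1 lie above 0 and the WT_1 to WT_2 ratio of −2.40 is the farthest from 0, while the intervals of *Tgm2* and *F13a1* stay inside the dotted lines.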

How the data were processed

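RNA from pooled SG was enriched for mRNA with oligo(dT), and 50-base single-end reads were filtered with SOAPnuke (v1.5.2) and mapped with HISAT2 (v2.0.4) to mm9, per the study's methods, whereas the submitters' processing notes name RSEM and mm10. The tables hold no coordinates, so positions are those of GENCODE vM1 on NCBIM37. The expected count of each Entrez gene was deposited by the authors as estimated from the mapped reads, not normalized. The FPKM values were deposited by the authors scaled to gene length and library reads. Between 92.6% and 93.7% of the counts were whole. They also deposited a gene length, used only as a description. The members and lists were chosen with earlier results of these data known. Symbols were matched through RefSeq (GRCm38.p6, names only) for 17619 of 17667 identifiers.

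Fold changes are log2((FPKM + 0.1)/(FPKM + 0.1)) for the 15275 genes present in every table, which understates changes of low genes, with a cutoff of 0.5. Genes were to pass it in the same direction against both WT libraries. Counting intervals are exact Clopper-Pearson 95% intervals of the share of reads in 1 of a pair of libraries, and, as does the floor of 3 reads, reflect counting error alone. Expected counts rounded to whole numbers were tested with edgeR 4.0.16 (TMM, filterByExpr, glmQLFTest, Benjamini-Hochberg) and DESeq2 1.42.0, with WT as 2 libraries and each mutant as 1. Coding sequences were aligned with Biopython 1.88. Scripts were tested on simulated data. Genes named are the 5 members, other family genes and *F13b*, *Ntrk3*, genes within 10 kb of a member, the 4 most abundant genes of each list, and the 5 nearest profiles of members with at least 20 reads. Other listed genes named (such as *Krt5*, *Ppl*, *Adgrg1*, *Spp1*, *Igfbp3*, *Lyve1* and *Fga*) were added after their values were seen. No sequence of a protein was used here. Alternatives were pseudocounts of 1 and 0.01, a minimum mean of 1 FPKM, unlisted genes as 0, TMM or DESeq2 scaling, median centring, a cutoff of 1, the WT mean as control, and leaving out either WT library.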

Additional observations from a re-analysis of the deposited data

How the results depend on the processing

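Of 151 log2 fold changes of *Tgm1*, *Tgm2*, *Tgm3* and *F13a1* recomputed under the alternatives, 147 stayed within the counting interval of the reported value with no turn of sign where that value was past the cutoff. The other 4, 2 with the sign turned and 2 outside that interval with the sign kept, were of *Tgm1*. With WT_1 and WT_2 averaged to form the control, *Tgm1* was at 0.18 in the library labelled TRKC+/-, in place of 1.60 against WT_1 and −0.52 against WT_2, and at −0.32 in AdNTF3-Tg, in place of 1.10 against WT_1, because the WT libraries are the extremes. With a pseudocount of 1 its WT_1 to WT_2 value was −1.07. The call of *Tgm3* in AdNTF3-Tg was lost with a pseudocount of 1 and with a cutoff of 1 (0.71 against WT_1), and could not be made among genes of at least 1 FPKM. *Tgm2* and *F13a1* were not called under any of these settings.

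The counts of genes past the cutoff against both WT libraries were, in the order TRKC+/- higher, TRKC+/- lower, AdNTF3-Tg higher and AdNTF3-Tg lower, 272, 381, 324 and 547. With a pseudocount of 1 they were 43, 62, 45 and 120, with a minimum mean of 1 FPKM 69, 140, 90 and 242, with unlisted genes as 0 they were 675, 640, 700 and 852, with a cutoff of 1 they were 48, 87, 58 and 120, and with the WT mean as control 531, 777, 613 and 1061. Leaving out either WT library gave 707 to 1029, 904 to 925, 858 to 948 and 1085 to 1258. The genes lower in the library labelled TRKC+/- at the adjusted p threshold numbered 1 (*Ucp1*), 0 with edgeR and no filter, 2 with DESeq2 size factors and 2 with the DESeq2 Wald test, the added gene being *Npcd*. No member passed with edgeR or DESeq2, the adjusted p lying between 0.813 and 1.0, and 24 of 24 fitted member values kept their sign. In AdNTF3-Tg 0 genes passed with edgeR (831 at an unadjusted p under 0.05) or with DESeq2 (64). The fits did not use the pairing that the table names give. In that pairing each mutant has 1 library and 1 WT library, so no paired test was possible. Leaving out a WT library leaves no residual degrees of freedom, so that test was not run. Depth limits *Tgm3* and *Tgm5* most, with at most 14 and 3 reads.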
